A study of Homo sapiens with 3 samples.

Results

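The 9p21 stretch of chromosome 9, from 20 to 33 Mb on hg19, was examined in the target list of a capture experiment on K562 cells, a human erythroid and myeloid leukaemia line. All target intervals lying fully inside that window were taken, which gave 597 of the 377858 intervals in the list and 597 of 15240 on chromosome 9. The study captured the ends of introns from K562 RNA depleted of ribosomal RNA to find branchpoints, and its 3 libraries are biological replicates of the line and form 1 group. The list is common to the 3 libraries, so it holds no value per library, no spread between replicates and no comparison between conditions. Each interval carries a deposited score, a whole number. What it measures is not stated by the labels or the file, and an interval with score 0 is called silent below. The window was chosen by these scores, for a long run of zeros around CDKN2A and the interferon genes, so every score below is a description, and no test was made on it.

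During splicing, the cut 5′ end of an intron is joined to a branchpoint base near its 3′ end, and capture probes against both intron ends enrich the RNA that shows this joint. A gene without introns offers such a design nothing to target. The 9p21 region is known for CDKN2A and CDKN2B, which encode inhibitors of the cyclin-dependent kinases that drive entry into the cell cycle, and for the type I interferon genes beside them. Loss of both copies of CDKN2A is common in acute lymphoblastic leukaemia and is known from K562. Whether loss of DNA has a part in the scores was not tested, since the list holds no measure of copy number.

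The list names no genes, and its build differs from that of the gene annotation used here (GENCODE release 29, on GRCh38). Gene names were therefore attached by lengths alone: a gene was named where the widths of its intron ends and the distances between them recurred in the list, within 2 nt, for at least 5 intervals. This named 27 genes of chromosome 9, which held 524 of the 597 intervals (87.8%), and no gene of another chromosome. A median of 92.9% of the intron ends of the best-fitting transcript were found. The 23 named genes that RefSeq lists lay in the same order there. Positions are those of the deposited list, on hg19 and 1-based.

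Over the whole window, 427 of 597 intervals (71.5%) scored 0, against a background of 47.2% in the list and 45.5% on chromosome 9. The zeros were not spread evenly. All 221 intervals from 20757989 to 25784412, a distance of 5.03 Mb, scored 0. In the left flank, from 20 Mb to the run, 25 of 37 intervals (67.6%) scored 0, and the scores reached 11. In the right flank, from the run to 33 Mb, 181 of 339 (53.4%) scored 0, and the scores reached 73. The mean score was 1.32 in the left flank and 2.89 in the right flank, against 7.16 on chromosome 9 and 6.80 over the list. Outside the run the window thus held silent intervals at a share above the background, and its mean scores were below it.

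**Figure D1:**
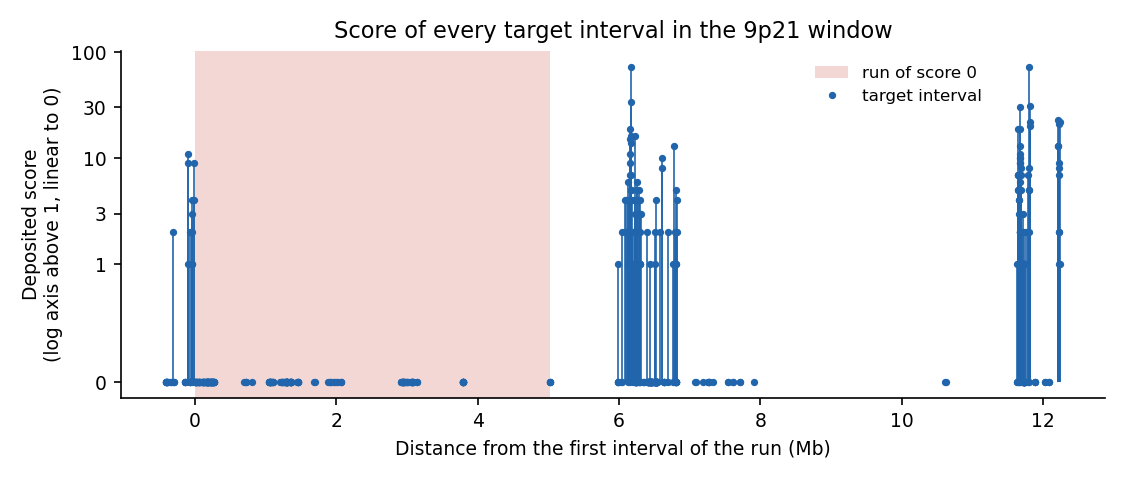
Deposited score (vertical axis, logarithmic above 1 and linear down to 0) of each of the 597 target intervals against distance in Mb from the first interval of the run; the shaded band is the run of score 0. The band holds 221 points, all at 0, while scores reach 11 to its left and 73 to its right.

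FOCAD, which encodes focadhesin, spanned the left edge of the run. The transcript that fitted best has 46 exons, and 89 of its 90 intron ends were found between 20658460 and 20993428. Before the run, from intron 1 to the 5′ end of intron 7, 11 of 13 intervals scored above 0, with a lowest score of 0, a median of 2 and a highest of 11. From the 3′ end of intron 7 to intron 45, all 76 intervals scored 0 over 235.4 kb. The change lay within intron 7: its 5′ end, at 20740341 to 20740440, scored 9, and its 3′ end, at 20757989 to 20758088, scored 0. These neighbours are 17.5 kb apart with no target between them, which is how closely the list places the left edge. In order along the gene, the first intron scored 9 at its 5′ end and 11 at its 3′ end, intron 2 scored 1 and 2, and intron 6 scored 3 and 4. Scores were thus high in the first intron, between 0 and 4 over introns 2 to 6, and 9 again at the last target before the edge. The 3 scoring intervals nearest to the run, all in FOCAD, scored 3, 4 and 9. A short group of 3 intervals at 20683541 to 20684565, inside intron 2 of FOCAD, scored 0 and was given to no named gene.

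**Figure D2:**
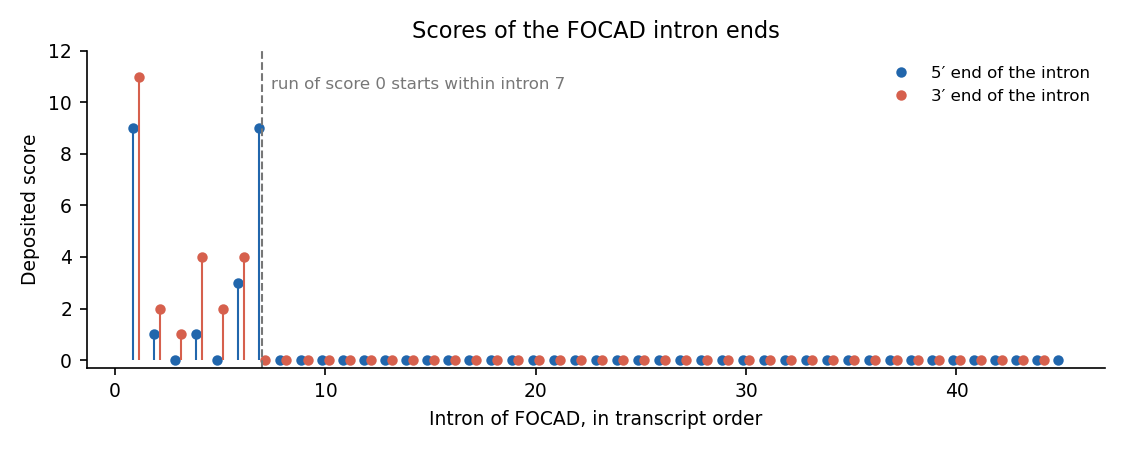
Deposited score (vertical axis) of each FOCAD intron end against intron number in transcript order, with 5′ ends in blue and 3′ ends in orange; the dashed line marks intron 7, in which the run begins. Of the 13 ends up to the 5′ end of intron 7, 11 are above 0, and all 76 after it are at 0.

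The silent 3′ side of FOCAD was set beside other genes of chromosome 9 that scored in part. By the same matching, 229 genes of that chromosome had at least 20 intervals and at least 1 above 0. FOCAD had 76 silent intervals in a row at its 3′ side, which was 85.4% of its intervals, and no other of these genes had as many there. COL27A1, which encodes a fibrillar collagen chain, came next with 63 of 102. The median over the 229 genes was 0. By share, 3 genes exceeded FOCAD, namely SLC1A1, ZNF462 and ADGRD2, and each of these had 1 or 2 scoring intervals and no score above 2. At the 5′ side, CACNA1B, a neuronal calcium channel gene, had 88 silent intervals in a row of 90, with 1 interval above 0. FOCAD had 11 intervals above 0, against 1 or 2 in each of these 4 genes. A scoring 5′ part before a silent 3′ side was not particular to FOCAD. AL160269.1 also had 11 intervals above 0, of 28, and 16 (57.1%) in a row at its 3′ side were silent. This comparison was chosen after the values were seen and carries no test, because the run was picked for its zeros.

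**Figure D3:**
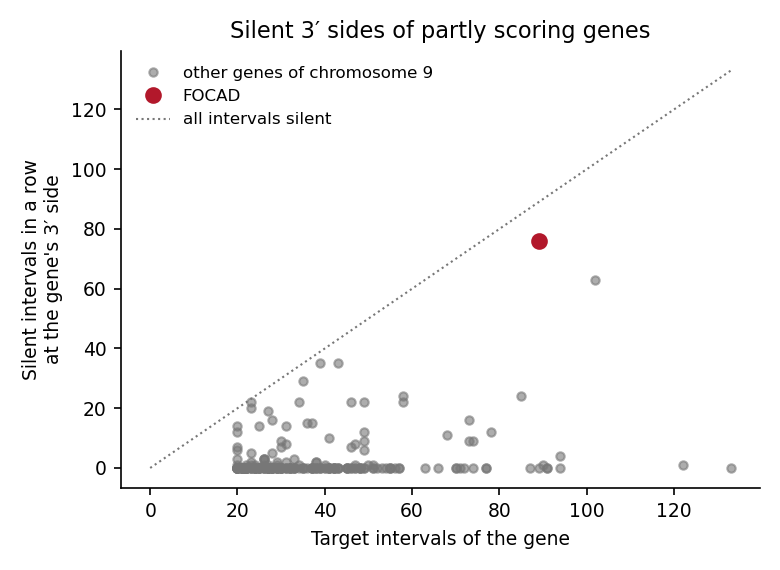
Number of silent intervals in a row at the 3′ side of a gene (vertical axis) against its number of target intervals (horizontal axis), for 229 partly scoring genes of chromosome 9; the dotted line is where all intervals would be silent. FOCAD, in red, lies at 89 intervals and 76 silent ones, above every other gene shown.

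To the left of FOCAD lay MLLT3, which encodes the AF9 subunit of the super elongation complex and is a fusion partner of KMT2A in acute leukaemia. It was also almost silent: 19 of its 20 intervals scored 0, and 1 interval, at the 3′ end of intron 3, scored 2. Silent intervals were therefore not limited to the run.

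Wholly inside the run, 9 genes were named, 4 coding and 5 noncoding, with 116 intervals, and every interval scored 0. On chromosome 9 as a whole, 17.7% of 623 genes named in this way had only zeros, and 12.5% of its 536 coding genes did. The run was chosen for its zeros, so nothing is read from that difference. HACD4, a dehydratase of very long chain fatty acid synthesis, had 12 intervals. MTAP, the methylthioadenosine phosphorylase of the methionine salvage pathway and a frequent partner of CDKN2A in deletions, had 17 between 21802951 and 21861974. CDKN2B-AS1, the long noncoding RNA also called ANRIL, had 34 between 22029332 and 22120502, the most of any gene wholly in the run. MIR31HG, the host transcript of miR-31, had 5. ELAVL2, a neuronal RNA-binding protein gene, had 15, and IZUMO3, a member of the sperm protein family IZUMO, had 10. The other noncoding genes were AL157937.1 with 6 intervals, LINC01239 with 9 and AL365204.1 with 8. Whether the expression of these genes has a part in their zeros was not tested.

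The tumour suppressor genes themselves gave little to match. CDKN2A has at most 6 intron ends in a release 29 transcript and was not named by the rule, and CDKN2B has 2, fewer than the 5 a name required. RefSeq's order places CDKN2A after MTAP and CDKN2B within the span of CDKN2B-AS1. Between the last MTAP interval and the first CDKN2B-AS1 interval lay 7 intervals that were given to no gene, from 21968242 to 22008672, and all 7 scored 0. TUSC1, a candidate tumour suppressor gene, has no intron in release 29 and so offered no target. DMRTA1, a gene of the doublesex-related family, has 2 intron ends and was not named.

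The interferon genes were hardly addressed by the design. Of the 21 interferon genes and pseudogenes listed for 9p, 20 have no intron in release 29, and these 20 lie between HACD4 and MTAP in RefSeq's order. The list held no interval for 424.4 kb between HACD4 and MIR31HG and none for 243.5 kb between MIR31HG and MTAP. IFNK, the interferon of keratinocytes, has a single intron with 2 ends and lies elsewhere, and it was not named. KLHL9, a ubiquitin ligase adaptor gene in the same cluster, also lacks introns. The scores therefore say nothing about the 20 interferon genes and pseudogenes without introns, although the run spans them.

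The right edge of the run is placed far less closely than the left. Its last interval, at 25784313 to 25784412, was followed by 962.6 kb without a target. The next interval, at 26747044 to 26747143, scored 1 and belongs to AL451137.1, a noncoding gene, in which the other 5 intervals scored 0. The next scoring intervals, at 26805718 and 26842646, scored 2 and 4, the latter in CAAP1.

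Right of the run, 16 genes were named, of which 12 had an interval above 0 and 4 had only zeros. Among the genes matched on chromosome 9, 110 of 623 (17.7%) had only zeros. The first cluster, near 27 Mb, began with CAAP1, an apoptosis inhibitor gene, with 8 of 9 intervals above 0, a median of 4 and a highest score of 6. PLAA, which encodes a ubiquitin-binding activator of phospholipase A2, had 23 of 24 above 0, with a median of 5, a mean of 10.3 and a highest score of 73. IFT74, an intraflagellar transport gene needed for cilia, had 27 of 37 above 0, with a median of 1 and a highest of 16. Scores thus differed among these 3 neighbours, and within PLAA they ran from 0 to 73.

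The next genes were nearly silent although they lie outside the run. TEK, the angiopoietin receptor of blood vessels and of some blood stem cells, had 2 of 46 intervals above 0, with scores of 2 and 1. LINC00032 had 3 of 30, with a highest score of 4. LRRC19, a leucine-rich repeat gene nested in IFT74, had 0 of 8, and EQTN, which encodes the acrosomal protein equatorin, had 0 of 13. AL163192.1, an antisense transcript, had 0 of 5. A stretch dense in targets therefore held few scores: in the bin from 27.0 to 27.5 Mb, 99 of 127 intervals (78.0%) scored 0.

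Farther right, MOB3B, a kinase activator gene of the MOB family, had 5 of 6 intervals above 0, with a mean of 5.83 and a highest of 13. C9orf72, known for the repeat expansion of amyotrophic lateral sclerosis, had 8 of 16 above 0, with a mean of 0.94 and a highest of 5 at the 3′ end of its first intron. Then came a second silent stretch of 20 intervals over 4.56 Mb, from 27829488 to 32386368, which took in all 9 intervals of LINGO2, a neuronal cell surface protein gene, and the first intron of ACO1. Most of its length was empty, as the longest stretch of the window without a target, 2.70 Mb from 28670197 to 31372197, lay inside it. The window thus holds a silent run of similar length beside the first, with 20 intervals in place of 221.

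The last group of genes, near 32.5 Mb, held the gene with the highest mean score. ACO1, the cytosolic aconitase that serves as iron regulatory protein 1, had 36 of 41 intervals above 0, with a median of 5 and a highest score of 30 at the 3′ end of intron 14. DDX58, which encodes the viral RNA sensor RIG-I and acts upstream of the interferons, had 16 of 34 above 0, and none exceeded 3. NDUFB6, a subunit of respiratory complex I, had all 6 above 0, from 5 to 73, and the highest mean of the 27 genes, 26. APTX, the DNA repair protein aprataxin, is cut by the end of the window. All 9 of its intervals inside scored above 0, from 1 to 23, with a mean of 12.3. Over the whole gene, 11 of 12 intervals of APTX scored above 0, with a mean of 10.9. Between DDX58 and NDUFB6, 3 of 5 intervals without a name scored above 0, up to 8. The 7 intervals between NDUFB6 and APTX all scored 0.

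**Figure D4:**
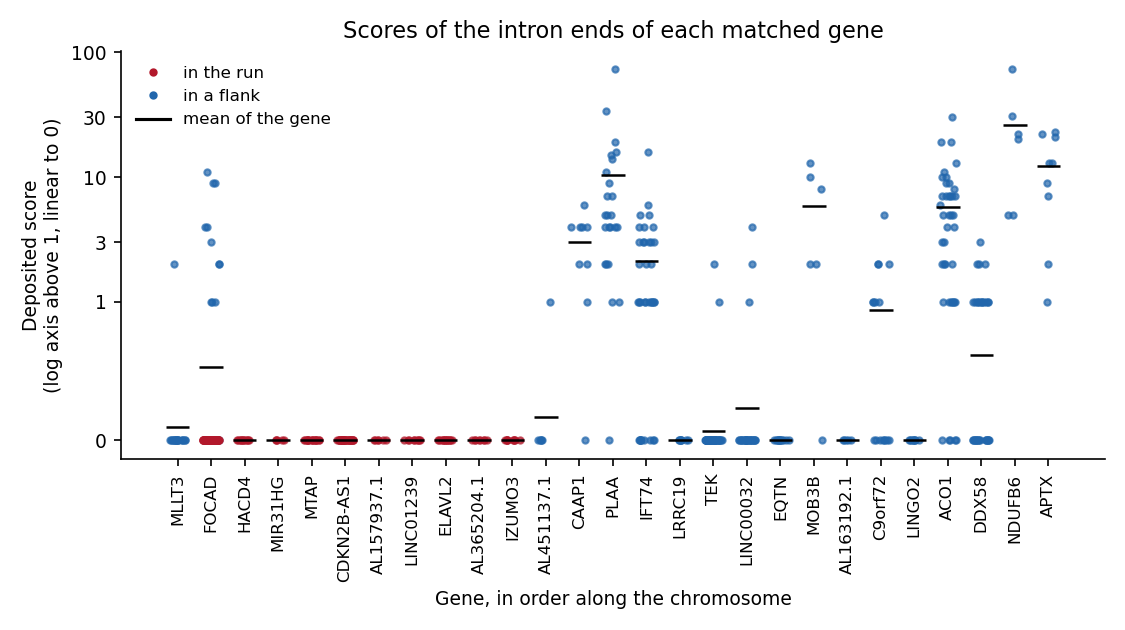
Deposited score (vertical axis, logarithmic above 1 and linear down to 0) of every matched intron end, by gene in order along the chromosome; red points lie in the run, blue points in a flank, and a black bar is the mean of the gene. The 9 genes from HACD4 to IZUMO3 are at 0 throughout, FOCAD holds both kinds of points, and NDUFB6 has the highest mean at 26.

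The 5 highest scores of the window came from 3 genes. The score of 73 occurred at the 5′ end of PLAA intron 8 (26920124 to 26920223) and at the 3′ end of NDUFB6 intron 2 (32558953 to 32559052). The next were 34 at the 3′ end of PLAA intron 4, 31 at the 3′ end of NDUFB6 intron 1 and 30 in ACO1. All 5 lay more than 1.1 Mb to the right of the run, the nearest at 1135711 nt. In the left flank the highest score was 11.

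Within introns, the 3′ end scored higher more often than the 5′ end. In the matched genes of the window, 88 introns had both ends targeted and at least 1 end above 0, over 14 genes. The 3′ end was higher in 55 of them (62.5%), the 5′ end in 26 (29.5%), and 7 were equal, with medians of 3 at 3′ ends and 1.5 at 5′ ends. On the whole of chromosome 9 the 3′ end was higher in 59.5% of 3465 such introns and the 5′ end in 34.8%. In DDX58 the 3′ end was higher in 9 introns and equal in 8, and 12 of 17 3′ ends scored above 0 against 4 of 17 5′ ends. In FOCAD the 3′ end was higher in 6 introns and lower in 1, which was intron 7 at the edge of the run. By gene means the order was less uniform, with the 3′ ends higher in 8 of the 14 genes and lower in 6 over these introns, and 7 and 7 over all matched ends of the same genes. Introns of a gene share its transcription and are not replicates, and no test was made.

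Target density did not set the run apart from its flanks when taken over their whole length. It was 4.39 targeted kb per Mb in the run, 4.75 in the left flank and 4.73 in the right flank, against 10.8 on chromosome 9. The ratio of run to flanks was 0.93. As a mean over bins wholly inside or outside the run it was 0.605 at 0.25 Mb and 0.651 at 0.5 Mb. Over the 0.5 Mb bins of that kind that hold an interval it was 0.586. The binned ratios leave out the bins that span an edge of the run, so the ratio depends mostly on whether those are counted, and less on empty bins. The window as a whole was thus sparsely targeted, at 4.60 kb per Mb. In 0.5 Mb bins, density varied more outside the run than inside it. The 9 bins wholly inside ranged from 0 to 8.79 kb per Mb with a median of 2.20, and 3 were empty. The 15 bins wholly outside ranged from 0 to 25.7 with a median of 0.40, and 6 were empty. The bin that holds FOCAD and the left edge had 19.1 kb per Mb. Over all bins of chromosome 9 the median was 6.60 kb per Mb and 18.0% were empty.

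**Figure D5:**
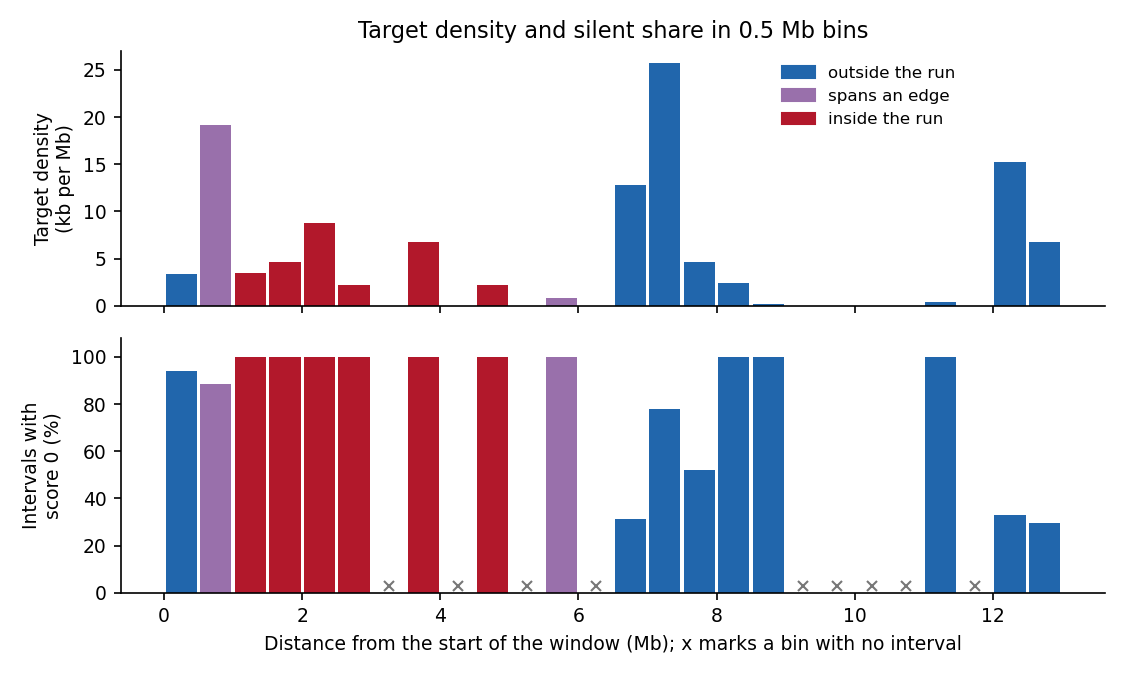
Target density in kb per Mb (upper panel) and percentage of intervals with score 0 (lower panel) in 26 bins of 0.5 Mb, against distance in Mb from the start of the window; red bins lie inside the run, blue bins outside, purple bins span an edge, and crosses mark bins with no interval. All 6 filled red bins stand at 100%, and density peaks at 25.7 kb per Mb in a blue bin.

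Bins in which every interval is silent are not rare in the list. Of 4677 bins on the autosomes and X with at least 10 intervals, 9.6% held only zeros, and 12.6% of 190 did on chromosome 9. In the window, all 6 such bins inside the run and 1 of 7 outside it held only zeros, the latter being the LINGO2 bin from 28.0 to 28.5 Mb. The 6 neighbouring silent bins are 1 run and were chosen as such.

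Among all runs of score 0 outside Y, of which there are 34406, this one came second by number of intervals. By distance 6 runs were longer, with 3 to 64 intervals each, and each of these contained an empty stretch of at least 3.01 Mb, against 1.23 Mb for the longest empty stretch in this run. With stretches over 1 Mb that hold no interval left out, it measured 3.79 Mb and ranked 6. Among the 48 runs of at least 100 intervals, a limit chosen after the data were seen, it spanned the greatest distance.

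The intervals of the run were built like those around it. The full width of 100 nt was found in 211 of 221 intervals of the run (95.5%) and in 356 of 376 flank intervals (94.7%), against 91.1% on chromosome 9. The widest interval of the window, 174 nt at 27258518 to 27258691, was a whole intron of LINC00032 and scored 0, and the narrowest was a single base at 20620915. Gaps of up to 1000 nt between neighbours take in exons and the untargeted middles of short introns. Their median was 132.5 nt in the run, 106 nt in the left flank and 154.5 nt in the right flank, against 145 nt on chromosome 9. Intervals are numbered along the chromosome, and no number was missing in the window, whereas 179 (1.16%) were missing on chromosome 9. At the limits of the window, the nearest intervals inside scored 0 on the left and 1 on the right, and the nearest outside scored 0 and 5.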

How the data were processed

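Values came from 1 deposited interval list of the capture design for 3 K562 libraries. As given in the labels' protocols, probes addressed the terminal 100 nt on each side of GENCODE release 12 introns; the authors left out parts that overlap exons or are highly transcribed in K562, and the array maker left out repeats. The submitters' processing notes name hg19, Bowtie2, TopHat2 and bedtools without a role. The deposited score per interval is a whole number from 0 to 125 of unstated meaning; it was treated as a score, and no count model was fitted. Reads and branchpoint calls were not analysed here, and no sequencing depth stands in the list.

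The members, the run, the gene list and the comparisons were chosen with earlier results of these data known. The run of score 0 is the longest in the window. Genes were matched by the lengths of GENCODE release 29 transcripts: 1 placement per gene, edges within 2 nt, at least 50% of a transcript's intron ends found, each interval given to 1 gene, and at least 5 ends for a name; introns under 30 nt were skipped. No coordinate was carried between builds. The matching was tested on simulated data, in which every placed gene had more intron ends than the 5 a name required. That setting does not cover the named genes with the fewest intervals. The text names each gene of the fixed list that matched, the intervals at the edges of the run, the 5 highest-scoring intervals, the widest interval and the longest gap; other matched genes, the narrowest interval and genes elsewhere on chromosome 9 were named after their values were seen. Shares are a census of the list. Sequences are not reported here. Python 3.11.15, numpy 2.4.6, pandas 2.3.3, scipy 1.17.1 and matplotlib 3.10.9 were used.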

Additional observations from a re-analysis of the deposited data

How the results depend on the processing

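The scores chose the run, so its length and silence are descriptions. Within the limits of the run, the share of score 0 is 100% by definition under each alternative. Wider fixed limits, which take in the start of FOCAD, gave 95.4%. In the flanks, 54.8% scored 0, 67.6% scored 0 or 1, and 76.1% scored 0 to 2. The flank share was 62.8% when only whole 0.5 Mb bins inside the run were set aside, and 67.6% in the left flank alone. The median score of the flanks was 0, against a mean of 2.74. Density in the run divided by density in the flanks was 0.93 over their whole length. Without the bins that span an edge of the run, it was 0.605 as a mean of 0.25 Mb bins. For 0.5 Mb bins of that kind it was 0.651, a choice that was not planned, and 0.586 over those that hold an interval. The share of widths from 90 to 110 nt in the flanks was 96.8%. The run ranked 7 by distance, 2 by number of intervals, 6 without empty stretches over 1 Mb and 1 among runs of at least 100 intervals, the last pair of choices made after the data were seen. Matching with at least 3 ends gave 28 genes of chromosome 9 and 1 of another chromosome. With no tolerance at the edges it gave 15 and 15, and 14 of the 27 named genes were still matched, so names depend on that tolerance. The basic transcripts gave 28 and 4, with all 27 named genes matched. No paired analysis was possible because the list holds no value per library, which also leaves no replicate to drop.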
